A study of Mus musculus with 7 samples.

Results

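Insulin signalling was followed through the transcripts of 10 of its components in mouse liver: Insr, Irs1, Pik3r1, Pdpk1, Akt1, Akt2, Gsk3b, Ptpn1, Grb10 and Trib3. The 10 genes were taken as a fixed list of Ensembl IDs paired with symbols, out of 33426 IDs on the arrays. All 10 were among the 20055 IDs tested, which are those left after the 40% of IDs with the lowest mean signal were set aside (mean log2 value under 2.74). The study compared livers of 7 wild-type male C57BL/6J mice, an inbred strain that becomes obese on fatty food. In the BMJ + DIO group, 4 mice stayed on a fatty diet (60% of energy as fat) and were given lyophilised juice of bitter melon (Momordica charantia, here BMJ) by oral gavage, at 200 mg per kg body weight each day for 40 days. In the DIO group (diet-induced obesity), 3 mice had the fatty diet alone for those 40 days. All 7 had been fed the fatty diet from 4 weeks to 16 weeks of age before that, so both groups had the diet that brings on obesity, and no lean group was analysed here. Body weights were not used here. No gavage is described for the DIO group, so the juice and the gavage cannot be told apart. The labels give 16 weeks as the age of all mice, although the protocol runs 40 days past that age.

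Insulin binds the receptor tyrosine kinase encoded by Insr, which phosphorylates docking proteins such as IRS1. These recruit phosphoinositide 3-kinase (PI3K), whose lipid product brings the kinases PDK1 and AKT together at the membrane, where PDK1 phosphorylates AKT. Active AKT inhibits GSK3B, which frees glycogen synthase, and it holds down glucose production by the liver. The path is restrained at the receptor by the phosphatase PTP1B (gene Ptpn1) and the adaptor GRB10, and further down by TRIB3, a pseudokinase reported to bind AKT. In obesity the liver becomes resistant to insulin. Most control of the path lies in phosphorylation, which expression arrays do not measure.

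The values are log2 signals made by RMA (robust multi-array average), 1 per gene and array. Signals of different genes come from different probes, so each gene is compared only with itself across arrays. In whole liver, fewer cells of a type and less RNA per cell cannot be told apart. The ID-to-symbol table used here named 0 of the other IDs, so hepatocyte markers, other cell type markers and further genes of the pathway were not analysed here. DIO replicate 3 stood apart before any gene was tested: its mean Pearson correlation with the other 6 arrays across the tested IDs was 0.924, while the other arrays had 0.964 to 0.969. The main differences below are therefore given with and without that array. The labels call the arrays biological replicates, and their number, 4 and 3, limits the precision.

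The genes lie on different chromosomes of the GRCm38.p6 build, apart from Ptpn1 and Trib3, which share chromosome 2. All 10 are annotated as protein-coding in RefSeq. Trib3 (ENSMUSG00000032715, chr2:152337425-152344060) is the shortest of the 10 and Gsk3b (ENSMUSG00000022812, chr16:38089001-38246084) the longest. Toward the receptor end of the path lie Insr (ENSMUSG00000005534) at chr8:3150922-3279649, Irs1 (ENSMUSG00000055980) at chr1:82233105-82291439 and Pik3r1 (ENSMUSG00000041417) at chr13:101680761-101768217. The kinases are Pdpk1 (ENSMUSG00000024122) at chr17:24073680-24155619, Akt1 (ENSMUSG00000001729) at chr12:112653821-112674884 and Akt2 (ENSMUSG00000004056) at chr7:27591552-27640826. The other inhibitors are Ptpn1 (ENSMUSG00000027540) at chr2:167930750-167979385 and Grb10 (ENSMUSG00000020176) at chr11:11930499-12037428. Promoter sequences were matched by symbol for 9 of the 10 genes in the RefSeq table of the same build. The 250 bases before the outermost listed start are shown for Trib3 and Akt1, whose groups did not overlap, and for Pik3r1, which had the largest difference in size of the 10. Each runs 5′ to 3′ on the gene's own strand, which is the minus strand for all 3. Capitals mark 4 searched motifs on either strand: the GC box GGGCGG, the CCAAT box CCAAT, the FOXO site GTAAACA, and the ATF4 and C/EBP element TGATGNAA.
Trib3 (chr2:152344061-152344310): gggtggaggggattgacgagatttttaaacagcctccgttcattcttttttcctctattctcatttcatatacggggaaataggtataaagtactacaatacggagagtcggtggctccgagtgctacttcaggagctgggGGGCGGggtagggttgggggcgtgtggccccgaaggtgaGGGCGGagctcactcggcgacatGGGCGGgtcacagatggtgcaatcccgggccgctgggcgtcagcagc
Pik3r1 (chr13:101768218-101768467): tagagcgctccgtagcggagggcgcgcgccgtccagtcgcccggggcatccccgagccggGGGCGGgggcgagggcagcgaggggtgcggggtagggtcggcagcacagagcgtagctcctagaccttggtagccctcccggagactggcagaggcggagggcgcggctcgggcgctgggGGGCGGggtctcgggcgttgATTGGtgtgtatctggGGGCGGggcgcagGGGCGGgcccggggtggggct
Akt1 (chr12:112674885-112675134): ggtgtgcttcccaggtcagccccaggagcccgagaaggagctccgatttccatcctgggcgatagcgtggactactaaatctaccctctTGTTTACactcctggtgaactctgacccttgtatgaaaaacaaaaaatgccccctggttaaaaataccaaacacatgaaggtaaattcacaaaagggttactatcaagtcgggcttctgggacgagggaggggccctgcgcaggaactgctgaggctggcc

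The Trib3 window holds 3 GC boxes and none of the other 3 motifs. The Pik3r1 window holds 4 GC boxes and a CCAAT box on the opposite strand, which reads ATTGG here, and 76.4% of its bases are G or C. The Akt1 window holds a FOXO site on the opposite strand, which reads TGTTTAC here, at 161 to 155 bases before the start. Among all 32851 windows of that length in the table, 32.7% hold the GC box, 33.8% the CCAAT box, 3.17% the FOXO site and 3.45% the ATF4 and C/EBP element. Pik3r1 and Akt1 each have a second listed start, and the array value does not tell transcripts of different starts apart. The window at the second Akt1 start holds 4 GC boxes and no FOXO site, and 78.4% of its bases are G or C. At the second Pik3r1 start the window holds none of the searched motifs. These matches describe the letters of the windows and say nothing of binding.

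Of the 10 genes, 7 had a higher and 3 a lower mean in BMJ + DIO livers than in DIO livers, and none passed the test. Among all IDs tested, 56.3% had a higher mean in BMJ + DIO. Ptpn1 counts among the 7 with a difference of only 0.0008. In limma's moderated test on all 20055 IDs, the count of members past a Benjamini-Hochberg adjusted p of 0.05 was 0, and so was the count over all IDs (0%). At an unadjusted p under 0.05 there were 3 members: Insr and Pik3r1, both higher with the juice, and Trib3, which was lower. The same rule took in 6.41% of all IDs tested, 3.63% higher and 2.78% lower in BMJ + DIO. The groups did not overlap for 2 members, Akt1 on the higher side and Trib3 on the lower side. Groups without overlap occurred for 3.52% of all IDs tested, 1.84% higher and 1.68% lower. The list is small and was drawn up with results of these arrays known, so these counts are a description.

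**Figure D1:**
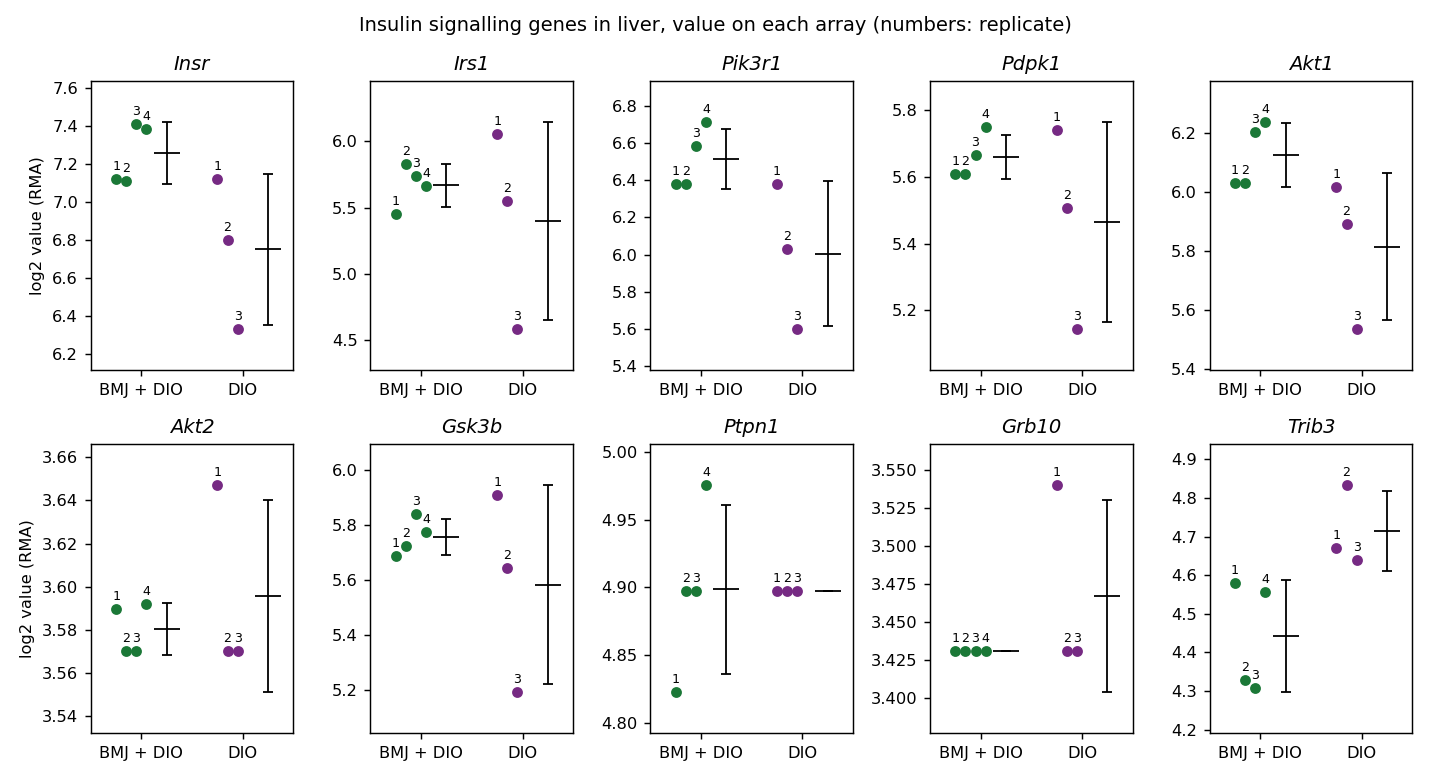
Log2 value (RMA, vertical axis, a separate range for each gene) of the 10 insulin signalling genes on each array, with BMJ + DIO (green, n = 4) left of DIO (purple, n = 3). Numbers are replicate numbers, and the black bar beside each group is its mean ± SD. DIO replicate 3 lies below all other arrays for Insr, Irs1, Pik3r1, Pdpk1, Akt1 and Gsk3b, and the Trib3 points of BMJ + DIO all lie below those of DIO.

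Insr, the receptor itself, read 7.12, 7.11, 7.41 and 7.38 on the log2 scale in BMJ + DIO replicates 1 to 4, against 7.12, 6.80 and 6.33 in DIO replicates 1 to 3. The treated livers lay in a narrow upper band, DIO replicate 1 lay within it, and the other DIO livers were lower. The mean was 7.26 ± 0.16 in BMJ + DIO (SD, n = 4) and 6.75 ± 0.40 in DIO (SD, n = 3). This is a log2 difference of 0.51 (SE 0.20, 95% interval 0.02 to 0.99), or 1.42-fold, with an unadjusted p of 0.0426 and an adjusted p of 0.571 in limma. The exact permutation test over the 35 divisions of the arrays gave a two-sided p of 0.0857, where 0.0286 is the smallest it can give. Without DIO replicate 3 the difference was 0.30 (interval -0.08 to 0.67, limma unadjusted p = 0.0969, adjusted p = 0.858).

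Irs1, the docking protein next to the receptor, varied most among the DIO livers. It read 5.45, 5.83, 5.74 and 5.66 in BMJ + DIO livers, against 6.06, 5.55 and 4.58 in DIO livers. The DIO livers spanned the treated range on both sides, with both the highest and the lowest of the 7 values. The mean was 5.67 ± 0.16 in BMJ + DIO and 5.39 ± 0.75 in DIO, a difference of 0.27 with an interval of -0.56 to 1.11 (limma unadjusted p = 0.452, adjusted p = 0.692). Its direction rested on DIO replicate 3: without that array the difference was -0.13.

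Pik3r1 encodes the p85 alpha regulatory subunit of PI3K and its shorter forms. It read 6.38, 6.38, 6.59 and 6.71 in BMJ + DIO livers, against 6.38, 6.03 and 5.60 in DIO livers. The lowest value of the treated livers was also the value of DIO replicate 1, so the groups met at that point. The mean was 6.51 ± 0.16 in BMJ + DIO and 6.00 ± 0.39 in DIO, a difference of 0.51 (SE 0.19, interval 0.03 to 0.99), or 1.42-fold, with a limma unadjusted p of 0.0396 and adjusted p of 0.571. The exact permutation test gave a two-sided p of 0.0857. Without DIO replicate 3 the difference was 0.31 (limma unadjusted p = 0.0957, adjusted p = 0.858). Insr and Pik3r1 thus had nearly the same difference, and their arrays fell in a like order, with BMJ + DIO replicates 3 and 4 on top and DIO replicates 2 and 3 at the bottom. Akt1, described below, had these same arrays on top and at the bottom. A lowest value in DIO replicate 3 was common at this brightness: 72.6% of tested IDs with a mean of 5 to 7, and 83.5% with a mean of 7 or more.

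Pdpk1 encodes PDK1, the kinase that phosphorylates AKT in its activation loop. It read 5.61, 5.61, 5.67 and 5.75 in BMJ + DIO livers, against 5.74, 5.51 and 5.14 in DIO livers. The treated livers lay within the range of the DIO livers, except replicate 4, which was just above it. The difference was 0.20 (interval -0.15 to 0.54, limma unadjusted p = 0.212, adjusted p = 0.575), and 0.04 without DIO replicate 3.

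Akt1 encodes an AKT kinase found in most tissues. It read 6.03, 6.03, 6.20 and 6.23 in BMJ + DIO livers, against 6.02, 5.89 and 5.54 in DIO livers. All treated livers were above all DIO livers, by a gap of 0.015 between the nearest arrays. The mean was 6.12 ± 0.11 in BMJ + DIO and 5.81 ± 0.25 in DIO, a difference of 0.31 (SE 0.13, interval -0.002 to 0.62), or 1.24-fold, with a limma unadjusted p of 0.0511 and adjusted p of 0.571. The exact permutation test gave 0.0286, the smallest it can give. Without DIO replicate 3 the difference was 0.17 (limma unadjusted p = 0.101, adjusted p = 0.858).

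Akt2, the main AKT of insulin action on liver metabolism, had nearly the same value on every array. It read 3.59, 3.57, 3.57 and 3.59 in BMJ + DIO livers, against 3.65, 3.57 and 3.57 in DIO livers. Both groups shared the same lowest value, which 4 of the 7 arrays carried. The difference was -0.02 (interval -0.11 to 0.08, limma unadjusted p = 0.694, adjusted p = 0.841). Whether Akt1 and Akt2 differed in their response was not tested.

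Gsk3b, the kinase that AKT inhibits, followed the pattern of Pdpk1. It read 5.69, 5.73, 5.84 and 5.77 in BMJ + DIO livers, against 5.91, 5.65 and 5.20 in DIO livers. The treated livers lay inside the range of the DIO livers. The difference was 0.17 (interval -0.23 to 0.58, limma unadjusted p = 0.337, adjusted p = 0.618). It was -0.02 without DIO replicate 3, so its direction also rested on that array.

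Among the inhibitors, Ptpn1 encodes PTP1B, which takes phosphate off the insulin receptor. It read 4.82, 4.90, 4.90 and 4.98 in BMJ + DIO livers, and 4.90 in each of the 3 DIO livers. The same value stood on 5 of the 7 arrays, with BMJ + DIO replicate 1 below it and replicate 4 above it. The difference was 0.0008 (interval -0.11 to 0.11, limma adjusted p = 1). Grb10, an adaptor that binds the active receptor and is imprinted in the mouse, read 3.43 in all 4 BMJ + DIO livers, against 3.54, 3.43 and 3.43 in DIO livers. A single array, DIO replicate 1, departed from the value that the other 6 carried. The difference was -0.04 (interval -0.14 to 0.06, limma adjusted p = 0.666).

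Trib3, which is known as a target of the stress factors ATF4 and CHOP, had the largest negative difference of the 10. Akt2 and Grb10 were the other members with a lower mean in BMJ + DIO, at -0.02 and -0.04. Trib3 read 4.58, 4.33, 4.31 and 4.56 in BMJ + DIO livers, against 4.67, 4.83 and 4.64 in DIO livers. Every treated liver was below every DIO liver, with a gap of 0.060 between the nearest arrays, and all 7 values were distinct. The mean was 4.44 ± 0.14 in BMJ + DIO and 4.71 ± 0.10 in DIO, a log2 difference of -0.27 (SE 0.10, interval -0.50 to -0.04), or 1.21-fold lower. The limma unadjusted p was 0.0290 and the adjusted p 0.571, and the exact permutation test gave a two-sided p of 0.0571. Without DIO replicate 3 the difference was -0.31 (limma unadjusted p = 0.0397, adjusted p = 0.858), so its size did not rest on that array. Leaving out each array in turn gave -0.32 to -0.21, with the smallest size without DIO replicate 2. In those fits limma's unadjusted p ran up to 0.0978.

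Set out by array, the 6 members with a mean of 5 or more (Insr, Irs1, Pik3r1, Pdpk1, Akt1 and Gsk3b) shared a profile. All 6 had their lowest value in DIO replicate 3. The mean of all 6 was higher in BMJ + DIO, by 0.17 to 0.51. So was that of 79.8% of all tested IDs with a mean of 5 to 7, and of 85% with a mean of 7 or more. None of the 4 members with a mean under 5 had its lowest value there alone, although Akt2 and Grb10 tied for it. Among all IDs tested, DIO replicate 3 held the lowest value for 42% of IDs, for 72.6% of IDs with a mean of 5 to 7, and for 83.5% of IDs with a mean of 7 or more. The median deviation of the 10 members from their own means was 0.01, 0.04, 0.12 and 0.10 in BMJ + DIO replicates 1 to 4, against 0.09, -0.03 and -0.44 in DIO replicates 1 to 3. DIO replicate 1 was thus level with the treated livers, and it held the highest value for 4 members (Irs1, Akt2, Gsk3b and Grb10). BMJ + DIO replicate 4 also held the highest value for 4 members. Among all IDs tested, DIO replicate 1 was highest for 21.4%, and for 34.2% of those with a mean of 5 to 7. The SD was larger in DIO for 8 of the 10 members, and for 72.4% of all IDs tested.

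**Figure D2:**
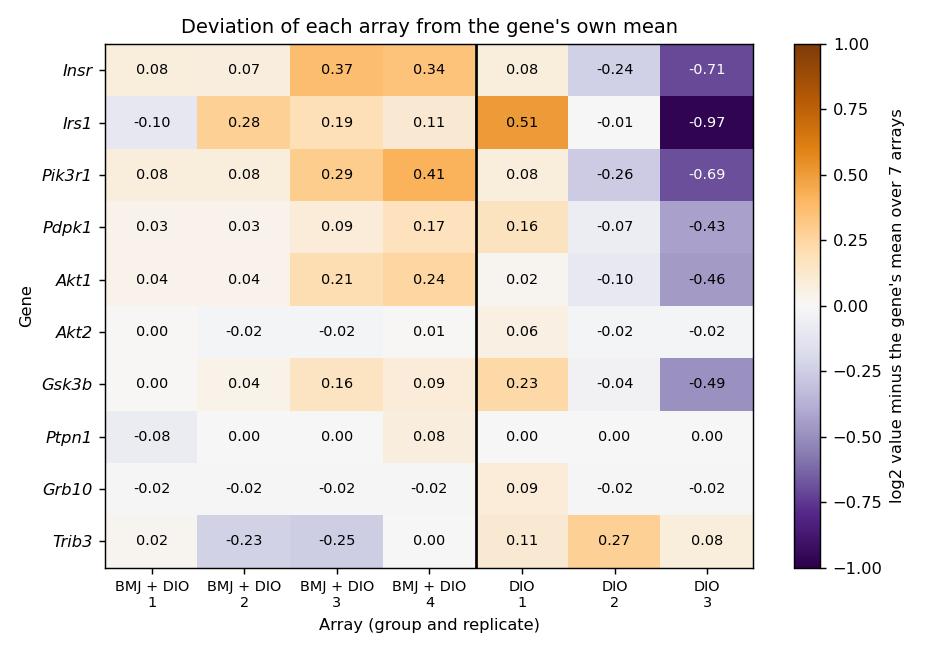
Log2 value minus the gene's mean over the 7 arrays, for each of the 10 genes (rows) and each array (columns, BMJ + DIO replicates 1 to 4 left of DIO replicates 1 to 3). Orange is above the gene's mean and purple below. DIO replicate 3 is the darkest purple column for the 6 brighter genes, down to -0.97 for Irs1, while Trib3 is above its mean in all 3 DIO arrays.

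The brighter IDs of the arrays as a whole had higher values in BMJ + DIO, which bears on these 6 members. The median log2 difference was 0.22 over the 1489 IDs with a mean of 7 or more, 0.16 over the 5135 IDs with a mean of 5 to 7, and -0.02 over the 11802 IDs with a mean of 3 to 5. These medians were 0.031, 0.022 and -0.009 without DIO replicate 3, so the shift of the bright IDs rested largely on that array. Pdpk1 and Gsk3b lay close to the median of their class, with 55.2% and 51.2% of its IDs having a smaller difference. Insr exceeded 86.2% and Pik3r1 91.5% of the IDs of their classes, Akt1 73.6% and Irs1 68.7%. With that array left out, Insr exceeded 88.5%, Pik3r1 94.1% and Akt1 82.4%, whereas Irs1 exceeded 13.8%, Gsk3b 34.7% and Pdpk1 54% of their classes. Trib3 lay near the other end, with 10.6% of IDs in its class having a smaller (more negative) difference, and 6.08% without that array. How much of the members' differences belongs to the shift shared by bright IDs was not tested.

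**Figure D3:**
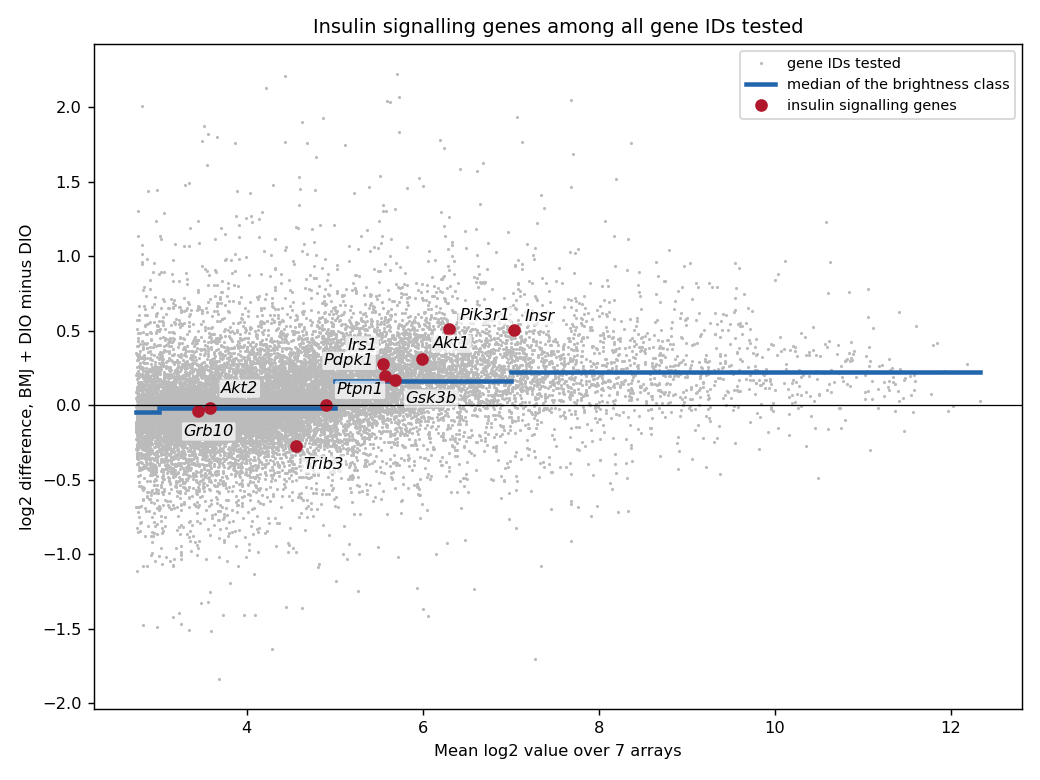
Log2 difference, BMJ + DIO minus DIO, against the mean log2 value over 7 arrays, for all 20055 gene IDs tested (grey) and the 10 insulin signalling genes (red, named). Blue lines are the medians of IDs with a mean under 3, 3 to 5, 5 to 7, and 7 or more. The 6 brighter members lie on or above the raised blue lines, and Trib3 lies below its line.

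Over the family, the median difference was 0.18, beside 0.02 over all IDs tested. It was 0.29 for the 6 genes of the path from receptor to AKT (5 higher, 1 lower, of which Insr and Pik3r1 had an unadjusted p under 0.05), 0.17 for Gsk3b, and -0.04 for the 3 inhibitors (1 higher, 2 lower, of which Trib3 had an unadjusted p under 0.05). All 3 inhibitors have a mean under 5, and the path genes except Akt2 a mean of 5 or more, so this division also follows brightness. Measured from the median of each gene's own brightness class, the median was 0.02 for the 10, 0.13 for the path and -0.02 for the inhibitors. Of the 10, 8 lay above their class median, which by definition has as many IDs above as below. Some did so by little, such as Akt2 at -0.0153 beside -0.0154 and Gsk3b at 0.173 beside 0.165. Without DIO replicate 3 the median over the family was -0.01, beside 0 over all IDs tested, with 0.10 for the path and -0.05 for the inhibitors. Only Trib3 of the 10 then had an unadjusted p under 0.05, as did 3.25% of all IDs tested. Without DIO replicate 1 the median was 0.34, and the members with an unadjusted p under 0.05 were Insr, Pik3r1, Pdpk1 and Akt1, while 29% of all IDs tested met that rule in the same fit. Over the 7 fits without 1 array this count ran between 0 and 4, and it was 0 without DIO replicate 2, BMJ + DIO replicate 2 or BMJ + DIO replicate 3. None of the 10 passed the adjusted threshold in any of these 7 fits.

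Cyclic loess, which evens out differences between arrays that follow brightness, was applied to all IDs as a second view. After it the median difference over the family was 0.03, beside -0.007 over all IDs tested. The median was 0.13 for the path from receptor to AKT and -0.09 for the inhibitors. Insr, Pik3r1 and Trib3 again had an unadjusted p under 0.05, as did 8.98% of all IDs tested. Insr had a difference of 0.28 (interval 0.11 to 0.45, limma unadjusted p = 0.00675, adjusted p = 0.534). Pik3r1 had 0.31 (interval 0.11 to 0.52, limma unadjusted p = 0.00944, adjusted p = 0.534). Trib3 had -0.32 (interval -0.57 to -0.07, limma unadjusted p = 0.0187, adjusted p = 0.534). Akt1 had a difference of 0.13 (limma unadjusted p = 0.0686), and Pdpk1 and Gsk3b were at 0.04 and 0.01. With DIO replicate 3 also left out, cyclic loess gave 0.25 for Insr, 0.27 for Pik3r1 and -0.31 for Trib3, with unadjusted p of 0.0187, 0.0287 and 0.0488 and adjusted p of 0.705, 0.718 and 0.731 in limma. In that fit 6.82% of all IDs tested had an unadjusted p under 0.05. As folds these sizes run between 1.19 and 1.24.

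**Figure D4:**
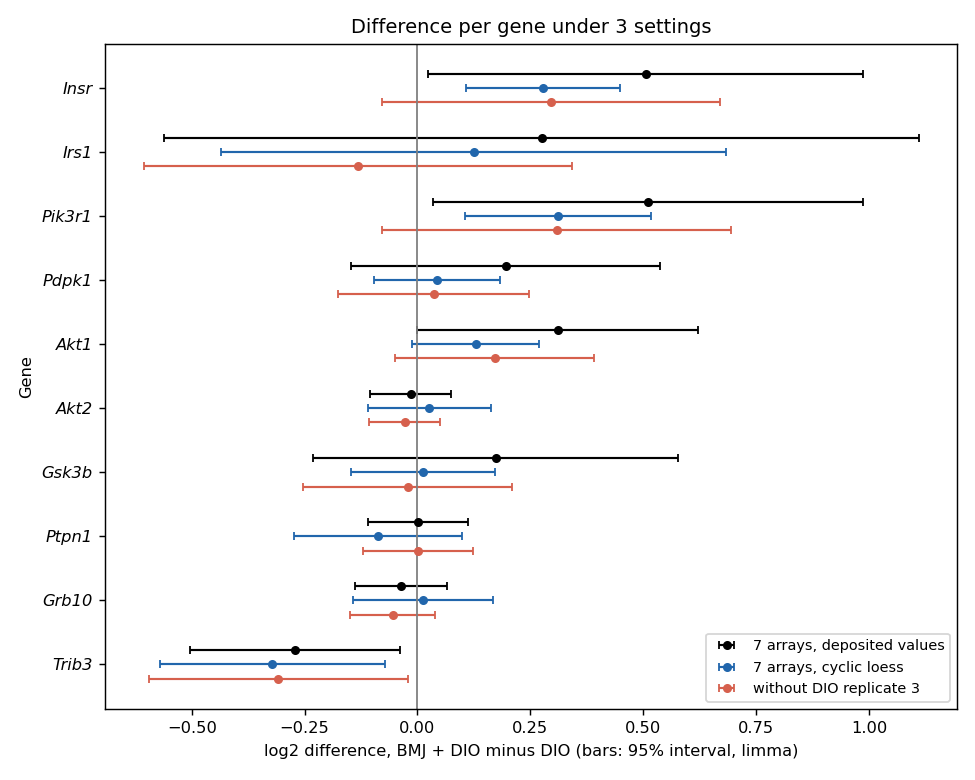
Log2 difference, BMJ + DIO minus DIO, with its 95% interval from limma, for each of the 10 genes on the deposited values (black), after cyclic loess (blue) and without DIO replicate 3 (red). The intervals of Insr and Pik3r1 exclude 0 on the deposited values and after cyclic loess but not without DIO replicate 3, and that of Trib3 excludes 0 in all 3. Irs1 and Gsk3b cross to the other side of 0 without DIO replicate 3.

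Exact repeats of a value across arrays limit what the members can show, Akt2, Ptpn1 and Grb10 above all. Of the 10 genes, 7 showed at least 1 repeat, and Irs1, Gsk3b and Trib3 had 7 distinct values. Grb10 had 2 distinct values, Ptpn1 3 and Akt2 4. Among the brighter members, Pik3r1 had the same value on 3 arrays, and Insr, Pdpk1 and Akt1 each on 2. For Pik3r1 and Insr that shared value occurred in both groups. Among all IDs tested, 41% had 7 distinct values. For Akt2, Ptpn1 and Grb10 the intervals on the deposited values were narrow, within 0.14 of 0 on the log2 scale. Repeated values lower the SD, which was 0 for Ptpn1 in DIO and for Grb10 in BMJ + DIO, so these intervals do not show an unchanged level. After cyclic loess they were -0.11 to 0.16 for Akt2, -0.27 to 0.10 for Ptpn1 and -0.14 to 0.17 for Grb10. The sources used here do not give detection calls, so it is not known whether these signals were above background.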

How the data were processed

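Liver RNA from 4 BMJ + DIO and 3 DIO mice was biotin-labelled and hybridised to Affymetrix arrays, 1 per mouse, per the labels' protocols. The deposited log2 values were made by the authors by RMA in Affymetrix Power Tools, with GRCm38 (mm10) as the genome, per the submitters' processing notes. Versions, array type, probe grouping and scan dates are not stated in the labels or notes used, and batches were not examined.

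Groups and replicate numbers came from sample titles. Differences are BMJ + DIO minus DIO, from lmFit and eBayes in limma 3.58.1 (R 4.3.3) with group as the sole term. Of 33426 IDs, the 40% with the lowest mean over the 7 arrays were left out. P-values are two-sided and were adjusted by Benjamini-Hochberg over the 20055 IDs left, at a threshold of 0.05. Exact permutation tests enumerated the 35 divisions of 7 arrays into 4 and 3, using the size of the mean difference. The fit was tested on simulated data with independent normal noise of the same spread in both groups. That test did not cover exact repeats, a shift of a single array or unequal spread, all of which occur here. Alternatives were other filters, quantile normalization, cyclic loess, median centring, a trended robust variance model, a replicate block and leaving out each array.

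All 10 members are named, each with every array's value. The members, the gene lists and the tests were chosen with earlier results of these data known. The 8 pathway and 10 marker lists, written in symbols, could not be matched, since 0 Ensembl IDs are in the reference table (GRCm38.p6). The symbols of the members came with the list of IDs. Replicate numbers 1 to 3 occur in both groups, and the main fit treated the groups as unpaired. Correlations of residuals between same-numbered arrays were -0.355, -0.09 and -0.296. These rest on 3 DIO arrays centred on their own mean, with DIO replicate 3 standing apart, so they cannot show whether arrays were paired.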

Additional observations from a re-analysis of the deposited data

How the results depend on the processing

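Insr, Pik3r1, Pdpk1 and Akt1 (higher in BMJ + DIO) and Trib3 (lower) kept their direction in all 16 alternative fits, and no member passed an adjusted p of 0.05 in any. Leaving out DIO replicate 3 turned Irs1 to -0.13 and Gsk3b to -0.021. Over the fits without 1 array Irs1 ran from -0.13 to 0.61, Gsk3b from -0.021 to 0.34, Akt2 from -0.028 to 0.010 and Ptpn1 from -0.025 to 0.026. The median over the members ran from -0.010 to 0.34, the members at an unadjusted p under 0.05 from 0 to 4, and all such IDs from 550 to 5823 (1285 with all arrays). Scaling turned the dim members Akt2, Grb10 and Ptpn1, but not Trib3. Akt2 was 0.023 after quantile normalization, 0.027 after cyclic loess and 0.032 after median centring. Grb10 was 0.0066 after quantile normalization, 0.013 after cyclic loess and 0.010 after median centring. Ptpn1 was -0.096 after quantile normalization and -0.087 after cyclic loess, but stayed positive after median centring, at 0.048. Median centring took Trib3 to an unadjusted p of 0.0669 and Akt1 to 0.0499 in limma (adjusted p over 0.05 for both). With a replicate block, 0 members and 449 IDs had an unadjusted p under 0.05, and Ptpn1 was -0.025. BMJ + DIO replicate 4 has no same-numbered DIO array and drops out of the blocked difference. Without the filter on dim IDs there were 1942 IDs, since more were tested. Cyclic loess put 1 ID, no member, past the adjusted threshold. Fits added after seeing the data joined cyclic loess with leaving out DIO replicate 1 (5382 IDs, Akt2 0.071, Ptpn1 -0.15, Grb10 0.073) or DIO replicate 3 (median -0.010, Irs1 -0.16, Gsk3b -0.051, Ptpn1 -0.011). The cause of these changes was not tested, the filter apart. Lists written in symbols were left out, and no detection calls were at hand. With the lowest 60% of IDs left out, Akt2 and Grb10 give no value.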
